A study of Mus musculus with 4 samples.

Results

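Utrn, Dmd, Dtna, Dtnb and Dag1 encode the core of the utrophin and dystrophin complex, and they are 5 of the 31053 genes measured in this series. The 5 genes were chosen by name with measured values of these libraries in view, in particular the level of Utrn by neuron subtype, its difference between neurons with 5 or more and with 0 barcode UMIs, and the levels in endothelial cells and astrocytes set beside them, so those values are given below as a description with no test. Single cells were taken from the ventromedial prefrontal cortex (prelimbic and infralimbic areas) of male C57BL/6 mice, 8 weeks old at injection. Every mouse, in every library, had received barcoded rAAV2-retro viruses that express EGFP in AI, DMS, MD, BLA and LH, target regions of this cortex from which the virus travels back along axons to the cell body. The series holds 3 unsorted libraries, each of 1 mouse, and 1 library of EGFP-positive cells sorted by flow cytometry and pooled from 3 mice, so the sorted side has no replicate. There was no uninjected group.

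The 4 matrices hold 24801 cell barcodes, of which 9368 carry one of 7 excitatory subtype names in the deposited neuron table. Each library totalled between 54749198 and 87841541 UMIs, and the median per excitatory neuron was 31670 UMIs in the sorted library and 21362 to 23213 UMIs in the others. Viral barcodes are counted in the matrices as 1 feature, so the 5 target regions cannot be told apart here, and they took 0.0319% to 0.0384% of all UMIs. Between 18 and 62 cell barcodes of each library also occurred in another library. Other cell classes were taken from cells absent from the neuron table by 2 marker genes each, for example Cldn5 and Flt1 with 4 or more UMIs for endothelial cells and Aqp4 and Gja1 with 3 or more for astrocytes. The unsorted libraries gave 986 endothelial, 460 astrocyte, 434 mural, 3054 microglial, 1760 oligodendrocyte, 1661 oligodendrocyte precursor and 1238 inhibitory neuron cells, and the sorted library held no cell in the endothelial, astrocyte, mural or precursor gates. The 7 endothelial markers summed to between 17860 and 20332 CPM (UMIs of a gene in each 1000000 UMIs summed over the cells of a group in 1 library) in the endothelial gate, and 6 astrocyte markers to between 8802 and 10246 CPM in the astrocyte gate. In the other gate the endothelial list summed to 9.8 to 13.5 CPM and these 6 astrocyte markers to 75.9 to 115 CPM.

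Dystrophin is a long rod-shaped protein that links actin under the membrane to a group of membrane proteins, and its loss causes Duchenne muscular dystrophy. Utrophin is its close relative and binds the same partners. Dystroglycan, the product of Dag1, is the receptor that carries the link outward to laminin, agrin, perlecan, pikachurin and the neurexins. It does so once its sugar chains have been built by a set of enzymes. The dystrobrevins, encoded by Dtna and Dtnb, bind dystrophin and utrophin from the inside and recruit the syntrophins, which in turn hold channels and enzymes such as aquaporin-4, the Kir4.1 potassium channel and neuronal nitric oxide synthase. In brain, the complex is known from astrocyte endfeet on blood vessels, from the vessel wall and from inhibitory synapses on neurons.

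The positions of the genes follow the GENCODE vM21 annotation of GRCm38. Utrn (ENSMUSG00000019820) lies on the minus strand at chr10:12382188-12869365 and Dag1 (ENSMUSG00000039952) on the minus strand at chr9:108204634-108263958. On the plus strand lie Dmd (ENSMUSG00000045103) at chrX:82948870-85206141, Dtna (ENSMUSG00000024302) at chr18:23415135-23659715 and Dtnb (ENSMUSG00000071454) at chr12:3572381-3781796. The reads mark the 3′ end of transcripts, and the coding transcripts of Utrn have 7 distinct 3′ ends, those of Dtna, Dtnb and Dag1 6 each and those of Dmd 3, so the counts add up isoforms that share or differ in their ends. No other gene of the matrices overlaps a member on the same strand. The levels compare groups for 1 gene, not genes with each other.

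Utrn was highest in the cells of the vessel wall. In the endothelial gate its level was 541, 536 and 487 CPM in unsorted libraries 1, 2 and 3 (521 ± 30.0, SD, n = 3), and in mural cells, the pericytes and smooth muscle of vessels, it was 386, 421 and 428 CPM (412 ± 22.3). The ranges of these 2 classes did not overlap, and no other class was above 54.6 CPM in an unsorted library. Inhibitory neurons (45.5 ± 3.88 CPM) and astrocytes (41.9 ± 10.9 CPM) overlapped, and they were followed by oligodendrocyte precursors (28.6 ± 0.55 CPM), microglia (8.51 ± 0.66 CPM) and oligodendrocytes (1.87 ± 0.57 CPM). A Utrn UMI was found in 71.9% to 77.4% of endothelial-gate cells at a median of 2393 to 2646 UMIs per cell, against 0.64% to 1.20% of oligodendrocytes at 4618 to 4910 UMIs. With each cell thinned to 2000 UMIs the shares were 62.9% to 66.4% of 217 to 245 endothelial cells and 0.16% to 0.18% of 546 to 617 oligodendrocytes.

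Among the excitatory subtypes, Utrn was highest in L5-S100b, a deep-layer subtype that made up 1409 of the 9368 neurons. The values were 38.0, 33.4 and 38.6 CPM in the unsorted libraries (36.7 ± 2.80, SD, n = 3) and 43.2 CPM in the sorted one (exact Poisson 95% interval 39.3 to 47.4, counting error only). L5-Bcl6 followed with 18.2, 18.3 and 16.7 CPM, and L2/3-Rorb with 14.6, 12.1 and 8.71 CPM. None of these 3 subtypes overlapped the next in the unsorted libraries. In L2/3-Calb1, L6-Npy, L5-Htr2c and L6-Syt6 the unsorted means were 2.15, 1.82, 1.29 and 1.06 CPM, and neighbours in that order overlapped. The subtype names come from clustering on all genes, Utrn included, so this order is a description. At the single-cell level, 39.4% to 46.0% of L5-S100b neurons and 1.66% to 2.59% of L6-Syt6 neurons of the unsorted libraries carried a Utrn UMI, and 23.4% to 25.9% and 0.66% to 1.22% did so after thinning to 10000 UMIs.

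**Figure D1:**
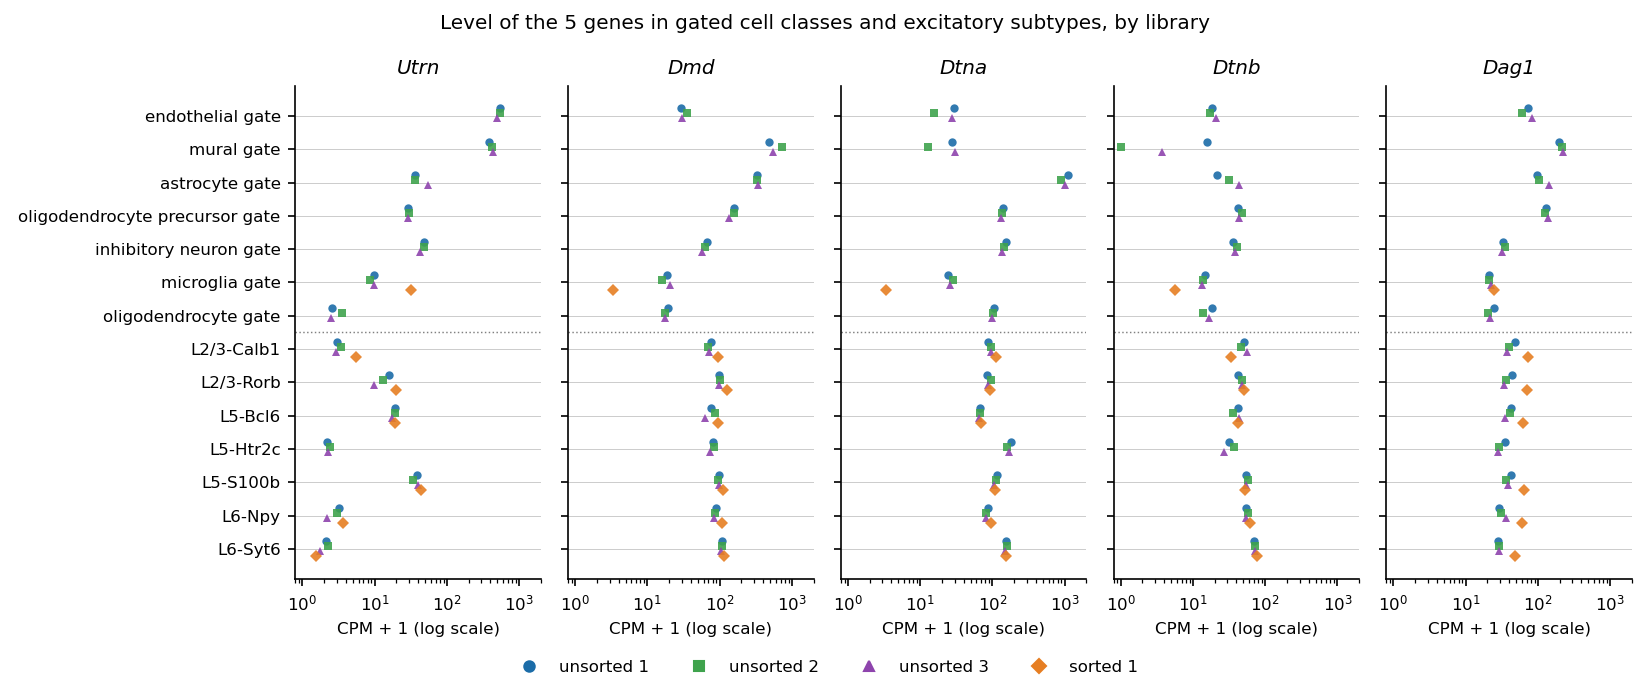
Level of the 5 genes (CPM + 1, log axis) in 7 gated cell classes and 7 excitatory subtypes, 1 marker for each library; groups with under 20 cells in a library are not drawn. Utrn is highest in the endothelial gate (487 to 541 CPM) and, among the excitatory subtypes with 20 or more cells, in L5-S100b, while Dtna peaks in the astrocyte gate (878 to 1095 CPM) and Dmd in the mural gate (486 to 726 CPM).

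Dmd followed another order. It was highest in mural cells, with 486, 726 and 541 CPM (584 ± 125), then in astrocytes with 332, 328 and 343 CPM (334 ± 7.75) and in oligodendrocyte precursors with 158, 159 and 132 CPM. Excitatory neurons (98.4 ± 2.31 CPM), inhibitory neurons (61.0 ± 4.92 CPM) and endothelial cells (30.5 ± 2.91 CPM) came next, each apart from its neighbours in the order, and microglia and oligodendrocytes, at 17.4 and 17.1 CPM, overlapped. Across the excitatory subtypes Dmd ran only from 70.4 CPM in L2/3-Calb1 to 106 CPM in L6-Syt6.

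The dystrobrevin genes differed in where they were high. Dtna, which encodes α-dystrobrevin, stood at 1095, 878 and 1011 CPM in the astrocyte gate (994 ± 110), and no other class was above 152 CPM. Inhibitory neurons, oligodendrocyte precursors and excitatory neurons lay between 126 and 152 CPM and overlapped, and oligodendrocytes had 101 ± 2.80 CPM. Of the excitatory subtypes, L5-Htr2c (169 ± 9.20 CPM) and L6-Syt6 (153 ± 4.08 CPM) were the highest and L5-Bcl6 (66.1 ± 1.02 CPM) the lowest, each apart from its neighbour in the order. Dtnb, which encodes β-dystrobrevin, was highest in excitatory neurons, at 60.2, 62.6 and 62.4 CPM, and within them in L6-Syt6, at 69.7, 71.1 and 72.0 CPM. In mural cells Dtnb was at 14.6, 0 and 2.69 CPM.

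Dag1 was highest in mural cells, with 194, 214 and 221 CPM (210 ± 13.6), followed by oligodendrocyte precursors (130 ± 6.69 CPM) and astrocytes (114 ± 24.5 CPM), which overlapped, and by endothelial cells (70.9 ± 10.9 CPM). Over all excitatory neurons the unsorted libraries lay between 30.4 and 32.1 CPM, and among the subtypes no neighbours in the order were separated. In the sorted library Dag1 was higher. It reached 54.3 CPM over all excitatory neurons (95% interval 52.3 to 56.4), 1.74 times the unsorted mean, and its value was above all 3 unsorted libraries in each of the 7 subtypes. Over the 8856 genes with 10 or more CPM in the unsorted mean, the median of the same ratio was 1.07, and 0.994% of the genes were at or above the ratio of Dag1. Dmd too was above all 3 unsorted libraries in each of the 7 subtypes there. Over all excitatory neurons Dmd was at 1.15 times their mean and Utrn at 1.41 times, both with intervals above all 3 unsorted values. For Utrn the ratio was 1.18 in L5-S100b, 1.03 in L5-Bcl6, 1.59 in L2/3-Rorb and 0.53 in L6-Syt6. It was 2.11 in L2/3-Calb1, 1.44 in L6-Npy and 18.9 in L5-Htr2c, with 4 sorted neurons in the last. L5-S100b made up 313 of the 1603 sorted neurons and 1096 of the 7765 unsorted ones. The sorted library is 1 library from other mice that was also sorted and more deeply sequenced per neuron. Sorting, animals and depth cannot be told apart here, nor subtype make-up in values over all excitatory neurons, and no test was made.

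Reads of excitatory neurons were also present in the gated cells. The 4 excitatory markers Slc17a7, Neurod6, Tbr1 and Camk2a summed in the endothelial gate to 17.8% to 24.7% of their level in excitatory neurons, in the astrocyte gate to 18.4% to 23.8% and in microglia to 17.6% or more. On the same scale Dtna was at 11.1% to 22.0% of its excitatory level in the endothelial gate, Dmd at 28.8% to 33.8% and Dtnb at 26.4% to 31.6%. In microglia Dmd, Dtna and Dtnb were all between 15.1% and 22.4%. The part of neuronal RNA in these low values was not tested. On the same scale Utrn in the endothelial gate was at 5978% to 6883% of its excitatory level and Dtna in the astrocyte gate at 660% to 846%.

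Genes with the subtype pattern most like each member were ranked by Pearson's r over the 7 subtypes, on the mean of log2(CPM + 1) over the unsorted libraries, among 3338 genes with 10 or more CPM in the highest subtype and a range of 1 or more. The 7 points come from the same 3 libraries and from clusters built on the same genes, so r is a description. For Utrn the closest were Zbtb44 (r = 0.94), Ttpal (0.94), Reep6 (0.94), Egln3 (0.92) and Ccdc85a (0.91). For Dtna they were Palm2, Ino80c and Prdx4 (0.97, 0.96 and 0.96), and for Dtnb they were Anxa6, Psmb10 and Hpcal4 (0.98, 0.96 and 0.94). Dmd and Dag1 varied too little across subtypes to be ranked. Among the members themselves r was highest for Utrn with Dag1 (0.68) and lowest for Dtna with Dag1 (-0.70).

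The endothelial and the astrocyte gate hold cells that share the vessel surface. Their comparison is among the values in view when the genes were chosen, so the members' fold changes are given with no test. Utrn was the member higher in endothelial cells, and the other 4 were higher in astrocytes. Utrn had 541, 536 and 487 CPM in the endothelial gate against 35.5, 35.8 and 54.6 CPM in the astrocyte gate, a fitted log2 fold change of 3.68 (SE 0.169). The groups did not overlap. Dmd went the other way, with 28.5, 33.9 and 29.2 CPM against 332, 328 and 343 CPM (log2 fold change -3.39, SE 0.149). Dtna showed the widest gap of the 5 members, with 28.5, 14.8 and 26.3 CPM against 1095, 878 and 1011 CPM (log2 fold change -5.35, SE 0.144).

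Dag1 and Dtnb differed less between these gates. Dag1 had 70.9, 59.9 and 81.8 CPM in endothelial cells against 96.5, 104 and 142 CPM in astrocytes (log2 fold change -0.62, SE 0.156). Dtnb had 17.1, 16.5 and 19.7 CPM against 20.3, 30.9 and 43.1 CPM (-0.76, SE 0.276). Neither gene overlapped between the gates. In this comparison 50.2% of the 10160 genes in the fit were called by edgeR's quasi-likelihood test, 25% higher in endothelial cells and 25.3% higher in astrocytes; to be called, a gene had to differ by 0.5 or more in either direction on the log2 scale at an adjusted p below 0.05. The median log2 fold change was -0.76 over the members and 0.001 over all genes. When cells of more than 1 gate and cells outside the quality limits were kept, cells that passed both gates were summed on both sides. The log2 fold change of Utrn was then 1.84, that of Dmd -1.27 and that of Dag1 -0.11.

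**Figure D2:**
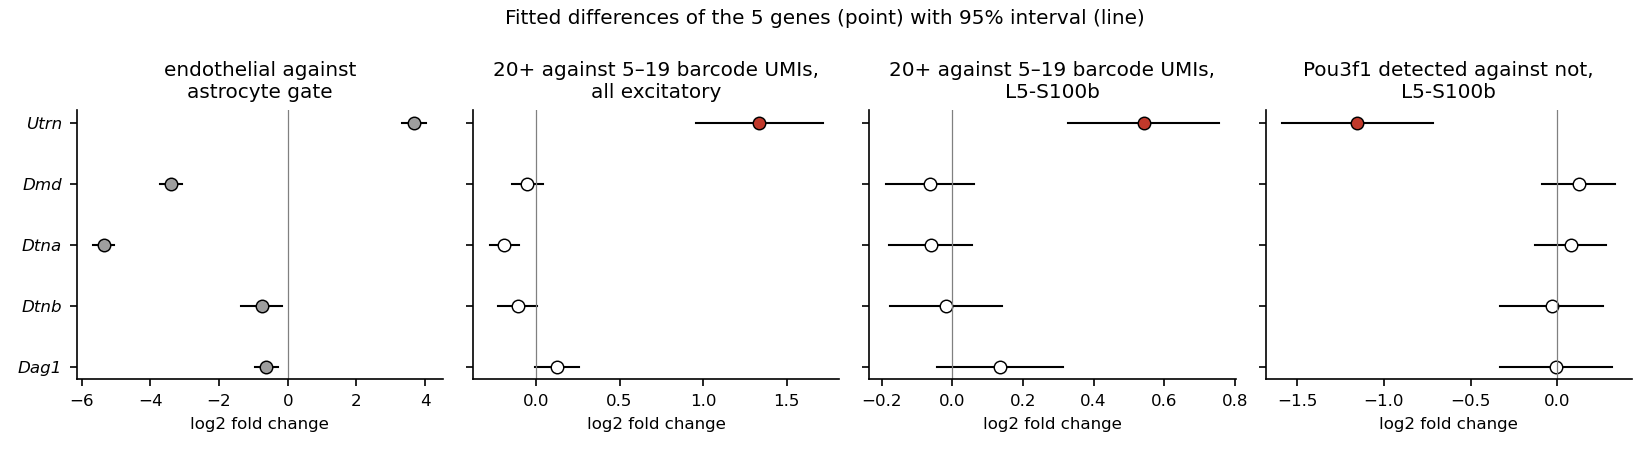
Log2 fold change (point) and 95% interval (line) of the 5 genes in 4 fitted comparisons. The endothelial against astrocyte points are grey, being a description with no test. In the other 3 comparisons points are red where called, and Utrn alone is called. It is positive in both barcode comparisons (1.34 and 0.54) and negative (-1.15) for Pou3f1 detected against not detected. The red point at 1.34 draws on subtype levels in view at the choice of the genes and is a description too.

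The partners of the complex differed between the gates in both directions. Of the 40 further genes of the pathway found in the matrices, 28 passed the filter on low counts. Of these, 5 were called higher in endothelial cells and 13 higher in astrocytes (median log2 fold change -0.52 over the 28). Over all 10160 genes the shares were 25% and 25.3%. Of the 10 ligand genes of dystroglycan in the fit, 5 were called higher in endothelial cells, 4 were called higher in astrocytes and 1 was not called. These counts come from the same comparison and are a description too. Lama4, the laminin α4 chain of vessel basement membranes, had 39.1 to 43.1 CPM in the endothelial gate and 0 UMIs in the astrocyte gate, which with 3 UMIs allowed over the 3 astrocyte groups is at least 25.9-fold higher. Egflam (pikachurin) was likewise at 15.5 to 22.6 CPM against 0 UMIs, at least 11.7-fold higher. Hspg2 (perlecan) had 80.8 to 82.5 CPM against 1.6 to 2.9 CPM, the latter from 4 UMIs in all (log2 fold change 5.26, SE 0.348). Its ratio over summed libraries was 39.0, with a counting interval of 15.1 to 144.

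The genes higher in astrocytes came from all 6 roles of the list, ligands included. Kcnj10, which encodes the Kir4.1 channel, had 127 to 137 CPM in the astrocyte gate and 2 UMIs in all in the endothelial gate, a ratio of 247 with a counting interval of 67.7 to 2052. Lama2, the laminin α2 chain, had 43.1 to 55.9 CPM against 3 UMIs, a ratio of 59.7 with a counting interval of 19.8 to 295. Of the 10 enzymes of dystroglycan glycosylation that were tested, 4 were called higher in astrocytes and none higher in endothelial cells. Of the 3 sarcoglycan and sarcospan genes tested, 2 were called higher in astrocytes. Over all genes of this comparison 25.3% were called higher in astrocytes and 25% higher in endothelial cells. Aqp4 served to choose the astrocytes and is not counted.

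**Figure D3:**
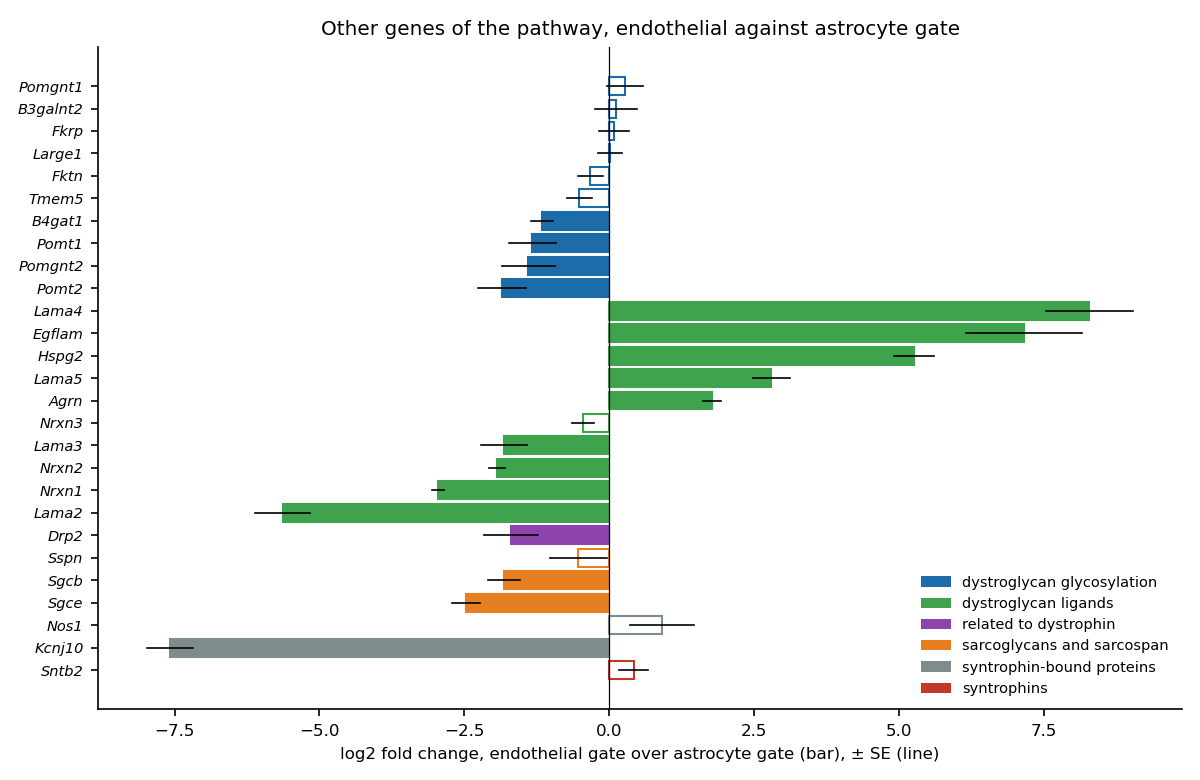
Log2 fold change (bar) ± SE (line) of 27 of the 28 tested genes of the pathway, endothelial over astrocyte gate, coloured by role and filled where called. The 5 filled bars to the right are dystroglycan ligands, and the 12 filled bars to the astrocyte side hold 4 further ligands and genes of other roles; the bar lengths of Lama4 and Egflam depend on the prior count, since both had 0 UMIs in the astrocyte gate.

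The barcode feature counts virus transcripts in a cell. A count of 0 does not show that a neuron took up no virus: in the sorted EGFP-positive library 198 of 1603 excitatory neurons had 0 barcode UMIs. Of the microglia of the unsorted libraries, 5.16% to 5.59% had 1 or more barcode UMIs and 0.62% to 1.70% had 5 or more, against 56.7% to 60.7% and 37.8% to 39.9% of excitatory neurons, at median depths of 4153 to 4422 and 21344 to 23213 UMIs. Utrn differed along this count within L5-S100b. In unsorted libraries 1, 2 and 3 and, after them, the sorted library, Utrn had 17.3, 21.6, 18.4 and 32.0 CPM in the 195 L5-S100b neurons with 0 barcode UMIs. The 958 neurons with 5 or more had 44.7, 33.8, 42.8 and 49.8 CPM, higher in each of the 4 libraries, and the log2 fold change was 1.02 (SE 0.156). S100b, the gene for which the subtype is named, moved with it, from 18.1, 43.2, 11.6 and 37.5 CPM to 54.6, 61.5, 62.8 and 48.9 CPM, and its part in the difference was not tested. The 256 neurons with 1 to 4 barcode UMIs had 23.9, 40.9, 28.1 and 27.0 CPM. This contrast is among the measured values by which the 5 genes were chosen, so no test is given for them; over all genes tested in L5-S100b 2.7% were called. At the limit itself, the 53 neurons with 4 barcode UMIs had 34.8 CPM (95% interval 25.5 to 46.5, libraries summed) and the 41 neurons with 5 had 26.2 CPM (17.4 to 37.8).

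The other 4 members moved little over the same groups. In L5-S100b the log2 fold change of 5 or more against 0 barcode UMIs was -0.08 for Dmd, 0.20 for Dtna, 0.18 for Dtnb and 0.14 for Dag1. In L2/3-Rorb the change of Utrn was 0.37 (SE 0.321; 0.139% of genes called) and in L6-Syt6, where its level was lowest, -0.74 (SE 0.308; 1.67% called). In L6-Npy too few Utrn UMIs were counted for the fit (0.801% called), and Dtna there changed by 0.23. Of the other genes of the pathway, the 1 called of 25 tested in L5-S100b was Nos1, neuronal nitric oxide synthase, at a log2 fold change of 0.55 (SE 0.111). Nos1 was also the 1 called of 25 in L6-Syt6, at 1.11 (SE 0.112). Without the library block 0 of these genes were called in either subtype. In L5-S100b 0 were called without unsorted library 3 or with 1 or more against 0 barcode UMIs. These counts come from the contrast by which the members were chosen and are a description too.

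**Figure D4:**
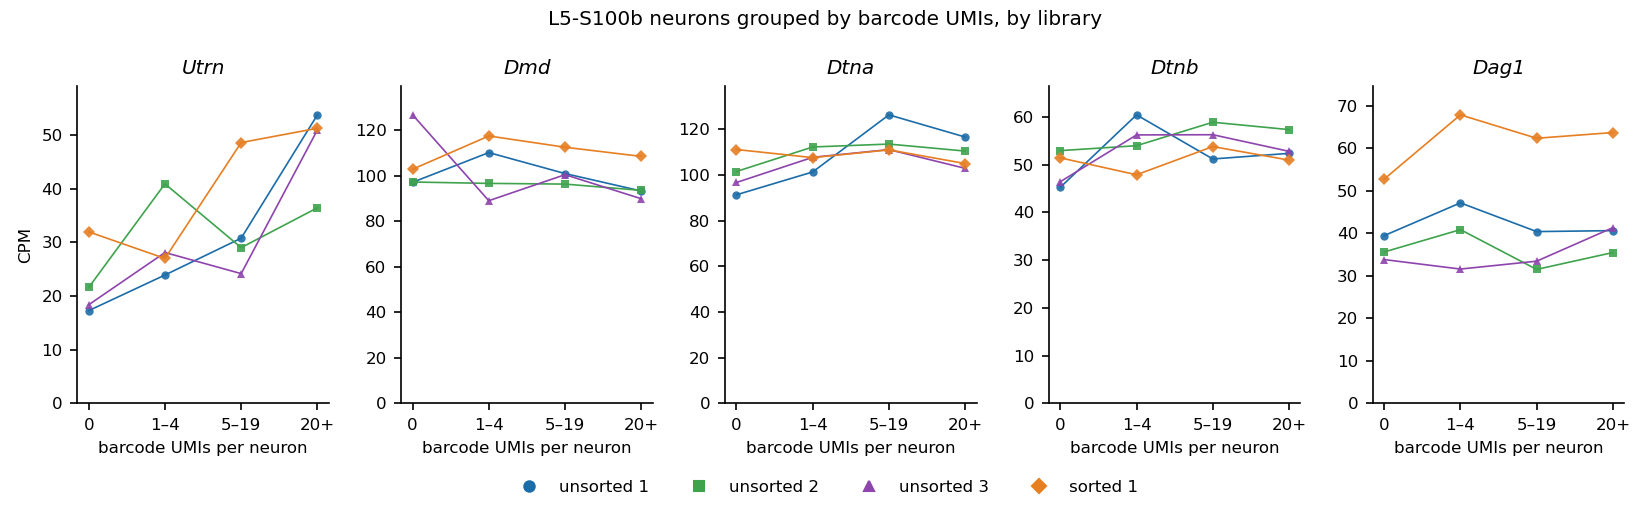
Level of the 5 genes (CPM, axes from 0) in L5-S100b neurons grouped by barcode UMIs per neuron, 1 line for each library. Utrn goes from 17.3 to 21.6 CPM at 0 barcode UMIs to 36.4 to 53.7 CPM at 20 or more in the unsorted libraries, and from 32.0 to 51.2 CPM in the sorted one, while the other 4 genes stay within a narrower range relative to their level.

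Over all excitatory neurons the difference in Utrn was wider than in L5-S100b. Utrn had 2.79, 2.69, 1.90 and 7.97 CPM in the 3393 neurons with 0 barcode UMIs and 16.2, 13.1, 14.6 and 13.8 CPM in the 3925 with 5 or more, a log2 fold change of 2.26 (SE 0.285; 2.34% of 14164 genes called, and 0 called by edgeR when any 1 unsorted library was left out, with 1515 to 1559 genes at an unadjusted p under 0.05). The 2 groups differ in their subtypes. With the subtype levels of the barcode-free neurons and the subtype shares of UMIs of the barcode-high neurons, the expected level was 7.27, 8.52, 6.76 and 10.8 CPM, between both measured levels in each library. Dtna changed by -0.30 over all excitatory neurons, and the 1 called of the 29 other genes of the pathway was Lama4 (1.32, SE 0.164).

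A split that the choice of the genes had not used is the one among the barcode-high neurons themselves, 20 or more against 5 to 19 barcode UMIs. Utrn was again higher in the group with more barcode UMIs, a raw count that is not scaled to the depth of a neuron. In L5-S100b it had 53.7, 36.4, 50.9 and 51.2 CPM in the 549 neurons with 20 or more barcode UMIs and 30.8, 29.0, 24.2 and 48.6 CPM in the 409 with 5 to 19. All 4 libraries were higher in the first group, by little in the sorted library, whose value at 5 to 19 lies within the range of the first group. The log2 fold change was 0.54 (SE 0.106, 95% interval 0.33 to 0.76, edgeR adjusted p = 0.0004), in a comparison that called 1.4% of 11319 genes. The other 4 members were not called (log2 fold changes of -0.06 for Dmd, -0.06 for Dtna, -0.02 for Dtnb and 0.13 for Dag1), nor was any of the 25 other genes of the pathway tested.

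That call lies close to its limits. It was lost with DESeq2 (0.58, adjusted p = 0.0672) and without the library block (0.53, edgeR adjusted p = 0.576), and without unsorted library 1 or 3 the change fell to 0.45 (edgeR adjusted p = 0.0046) and 0.40 (edgeR adjusted p = 0.0381), under the fold limit. Of the cell type markers, the 7 endothelial genes summed to 9.7 to 13.6 CPM in the unsorted neurons with 20 or more barcode UMIs and to 8.4 to 12.9 CPM in those with 5 to 19, and to 7.8 and 4.7 CPM in the sorted library; Cldn5, Cdh5, Ly6c1 and Slco1a4 had no UMI in its L5-S100b neurons. The 6 mural genes summed to 5.0 to 6.5 and 7.4 to 8.0 CPM over the 4 libraries, with Kcnj8 at 0 throughout. S100b was higher in 4 of 4 libraries with 20 or more barcode UMIs, at 57.3, 64.7, 72.1 and 65.9 CPM against 50.5, 55.5, 41.4 and 35.5 CPM. Bcl6, the gene that names L5-Bcl6, was lower in 4 of 4, at 2.34, 1.62, 3.06 and 3.44 CPM against 4.65, 4.62, 6.97 and 4.44 CPM. The part of these markers in the change of Utrn was not tested. In neurons with no UMI of 6 endothelial markers the change was 0.45 (edgeR adjusted p = 0.0112), a restriction chosen after seeing the data.

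L2/3-Calb1 and L5-Htr2c had too few neurons for this split to be fitted. In L2/3-Rorb and L5-Bcl6, where Utrn was tested, no such change of Utrn was called. It was -0.06 in L2/3-Rorb (SE 0.248, 95% interval -0.56 to 0.45, edgeR adjusted p = 0.979; 0.205% of genes called) and 0.42 in L5-Bcl6 (SE 0.267, interval -0.13 to 0.96, edgeR adjusted p = 0.909; 0.0601% called). In L6-Npy (1.51% called) and L6-Syt6 (0.733% called) Utrn was below the filter on low counts. The difference between L5-S100b and L2/3-Rorb, fitted after seeing the data, was 0.61 (SE 0.283, edgeR adjusted p = 0.625), and between L5-S100b and L5-Bcl6 it was 0.12 (SE 0.308, edgeR adjusted p = 0.978), so the subtypes were not shown to differ. In L6-Syt6 Dtna was lower in 4 of 4 libraries with 20 or more barcode UMIs, by a log2 fold change of -0.23 (SE 0.0467, edgeR adjusted p = 0.0004), which is under the fold limit.

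Over all excitatory neurons the same split gave Utrn 25.7, 20.8, 24.6 and 17.5 CPM against 8.99, 7.75, 6.25 and 11.8 CPM, with no overlap. The log2 fold change was 1.34 (SE 0.172), in a comparison that called 3.22% of 13308 genes. The level of Utrn by subtype was in view at the choice of the genes, so this pooled value is a description with no test. L5-S100b neurons gave 37.7%, 44.3%, 42.1% and 28.1% of the UMIs of the first group and 18.6%, 17.2%, 15.5% and 20.4% of the second, and the part of this shift in the change of Utrn was not tested. Dtna was lower by a log2 fold change of -0.19 (SE 0.0403, edgeR adjusted p = 0.0150), under the fold limit. Of the 27 other genes of the pathway tested, the 1 called was Sntb2, a syntrophin gene, at -0.56 (SE 0.0747, edgeR adjusted p = 0.0014). That call was lost in 2 alternatives. For 10 or more against 5 to 9 barcode UMIs 0 of these genes were called, and without the sorted library 2 were called higher and 0 lower.

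Pou3f1, a POU-domain transcription factor gene on which the study reports in this layer, gave a further division of L5-S100b. The paper names it as a marker gene of the L5-Bcl6 subtype. Pou3f1 was not used in choosing the members, but the level of Utrn by subtype was in view, so the split is not free of that choice. Utrn was lower in the neurons in which Pou3f1 was detected. The 80 L5-S100b neurons with 1 or more Pou3f1 UMIs had 15.4, 8.75, 17.8 and 27.5 CPM of Utrn, from 9, 4, 8 and 16 UMIs, and the 1329 neurons with none had 39.4, 34.8, 39.7 and 44.1 CPM. The groups did not overlap and the difference had the same sign in 4 of 4 libraries. The log2 fold change was -1.15 (SE 0.218, 95% interval -1.59 to -0.72, edgeR adjusted p = 9.13e-05), where 3.16% of 11533 genes were called. S100b was lower as well, at 13.7, 21.9, 22.3 and 10.3 CPM where Pou3f1 was detected against 47.2, 58.6, 55.2 and 44.4 CPM, while Bcl6 was at 3.42, 6.56, 4.46 and 6.87 CPM against 5.59, 2.53, 5.18 and 5.69 CPM. The mean of Utrn in the L5-Bcl6 subtype, 17.7 CPM in the unsorted libraries, lies within the range of the neurons with Pou3f1 detected. The part of subtype identity in this difference was not tested.

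The other 4 members did not pass this test, with log2 fold changes of 0.12 for Dmd (interval -0.09 to 0.34), 0.08 for Dtna (-0.13 to 0.28), -0.03 for Dtnb (-0.33 to 0.26) and -0.01 for Dag1 (-0.33 to 0.32). Of 26 other genes of the pathway, Sntb2 (0.81, SE 0.218, edgeR adjusted p = 0.0101) and Nrxn3, a neurexin gene (0.58, SE 0.0629, edgeR adjusted p = 6.00e-11), were higher where Pou3f1 was detected, and Nos1 was lower (-0.67, SE 0.139, edgeR adjusted p = 0.0005). Without the library block 1 of the 26 was called higher and 0 lower, so the call of Nos1 was lost. With DESeq2, and without unsorted library 1 or 2, 1 was called higher and 1 lower. The barcode content also differed between these neurons. Of the neurons with Pou3f1 detected, 20.0%, 31.6%, 35.3% and 5.26% had 20 or more barcode UMIs, against 36.4%, 45.8%, 49.5% and 28.6% of the others, and their median was 23073 to 29940 UMIs against 23896 to 33315. Among neurons with 5 or more barcode UMIs, of which 47 had Pou3f1 detected, as few as 8 in a library and with 22 Utrn UMIs in all, the change of Utrn was -1.34 (edgeR adjusted p = 0.0006), a restriction chosen after seeing the data. The 27 neurons with 2 or more Pou3f1 UMIs, as few as 5 in a library, held 3 Utrn UMIs, too few for a fold change.

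**Figure D5:**
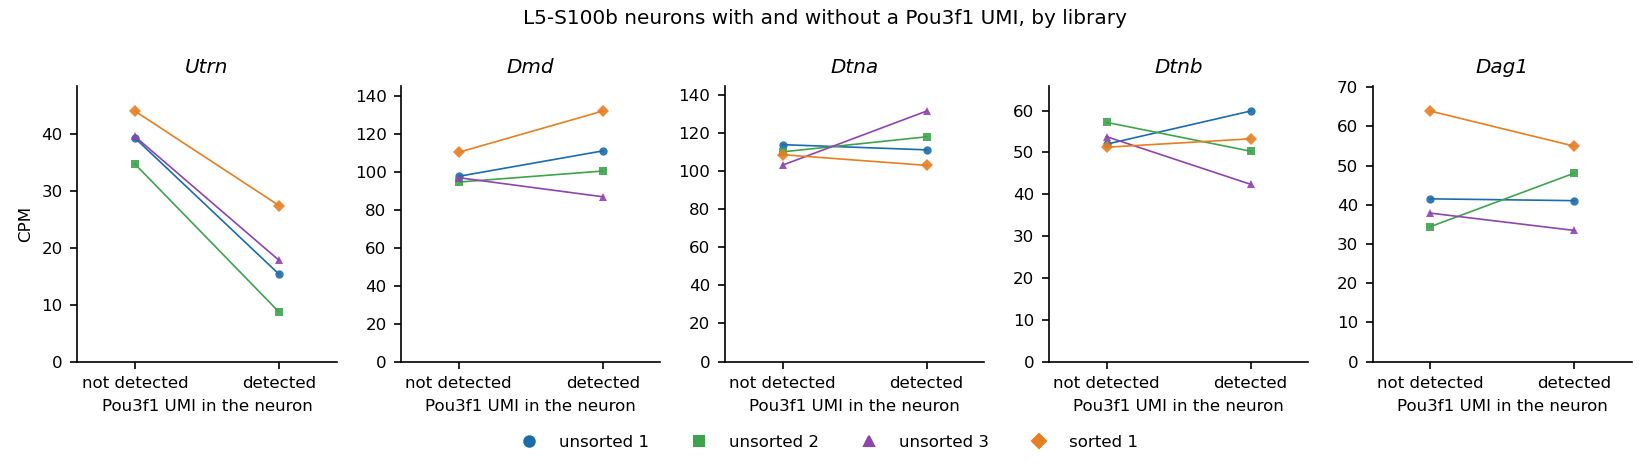
Level of the 5 genes (CPM, axes from 0) in L5-S100b neurons without and with a Pou3f1 UMI, 1 line for each library. Utrn falls in all 4 libraries, from 34.8 to 44.1 CPM to 8.75 to 27.5 CPM, while the lines of the other 4 genes have no common direction large enough to pass the test.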

How the data were processed

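Per the labels and the study's methods, cells were run on the 10x Genomics 3′ v3 system, and reads and virus barcodes were counted with Cell Ranger against the mouse genome mm10. The submitters' processing notes also name Seurat and Scanpy. The deposited matrices hold raw UMI counts per gene and cell, with no normalization by the authors, and the deposited neuron table gives subtype names and total counts for 9368 neurons; the largest difference between those totals and the matrices was 70 UMIs. Each neuron's library was taken from the sample column of that table, and every cell barcode of its rows occurs in that library's matrix.

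Counts were summed per library and group, and CPM were computed from these sums. Gated cells were absent from the neuron table, fell in 1 gate only and met the study's limits (500 to 8000 genes, 1000 to 60000 UMIs, under 20% mitochondrial UMIs). Gates asked for 4 or more UMIs of Cldn5 and Flt1, Rgs5 and Vtn, C1qa and Cx3cr1 or Gad1 and Gad2, and for 3 or more of Aqp4 and Gja1, Mog and Mag or Pdgfra and Cspg4. No doublet caller was run. All genes were tested with edgeR 4.0.16 (R 4.3.3; TMM, filterByExpr, glmQLFit and glmQLFTest, library as a block, 10 or more cells per group and library, except in 2 alternatives for Pou3f1 with as few as 8 and 5), adjusted by Benjamini and Hochberg over all genes tested. The script was tested on simulated data. Cells are not replicates, and the unsorted libraries are separate mice. DESeq2 1.42.0, other filters, scalings, gates and barcode limits, and leaving out each library were the alternatives. Exact Poisson and counting intervals cover counting error only.

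The members, the pathway list and the comparisons were chosen with earlier results of these data known. Named are the 5 members, up to 6 called pathway genes with the largest change in each comparison, and the 5 genes most like Utrn and 3 most like each other member by subtype pattern. Of the 42 names on the pathway list, 40 were found in the matrices. A few genes of the pathway and marker lists are not reported here, and the printed sums of the astrocyte and excitatory markers leave them out; with them a sum can be many times higher in another class. No sequence is shown.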

Additional observations from a re-analysis of the deposited data

How the results depend on the processing

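The call of Utrn in L5-S100b for 20 or more against 5 to 19 barcode UMIs (log2 fold change 0.54) kept its direction in all alternatives run and lost the call in 6 of them. These were DESeq2 (0.58), no library block (0.53), neurons with no Pou3f1 UMI (0.48), neurons with no UMI of 6 endothelial markers (0.45) and 2 of the fits without 1 library, which ranged from 0.40 to 0.76. The library is the pairing here, so the value without the block is the unpaired one; the replicate numbers of the labels pair no sorted with unsorted mice. The call of Utrn in all excitatory neurons (20 or more against 5 to 19), a description, was kept in every alternative run. With Pou3f1 in L5-S100b the call of Utrn was kept too, leaving aside the alternative with 2 or more Pou3f1 UMIs. That alternative rests on 3 Utrn UMIs, too few for a fold change, and is not counted. Between the endothelial and astrocyte gates the direction of all 5 members was kept in every alternative run, including the one that sums cells of both gates on both sides. Values near 0 changed sign. For Pou3f1, Dag1 was 0.018 with DESeq2, 0.015 with no replicate block, -0.15 to 0.090 without 1 library, 0.012 in neurons with 5 or more barcode UMIs and 0.22 with 2 or more Pou3f1 UMIs. There Dmd was -0.056 and Dtnb 0.022 with 5 or more barcode UMIs, Dtna was -0.017 with 2 or more Pou3f1 UMIs, and without 1 library Dtna ranged from -0.0027 to 0.12 and Dtnb from -0.13 to 0.048. Dtna in L5-S100b was 0.012 for 10 or more against 5 to 9 barcode UMIs, and Utrn in L2/3-Rorb ranged from -0.30 to 0.079 without 1 library. For the 15 further combinations of member and subtype, 0 calls by edgeR or DESeq2 were made under any setting, and their directions, which also changed sign near 0, are not given; this was decided after seeing them. The cause of these changes was not tested.

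Counts of called genes moved more. With Pou3f1 it was 364, and 112 with no block. For 20 or more against 5 to 19 barcode UMIs it was 428 over all excitatory neurons (204 to 776), 158 in L5-S100b (11 to 189), 20 in L2/3-Rorb (0 to 37), 5 in L5-Bcl6 (0 to 27), 146 in L6-Npy (18 to 149) and 87 in L6-Syt6 (11 to 110). For 5 or more against 0 it was 331 (0 to 1386), 310 (56 to 355), 14 (0 to 33), 83 (0 to 115) and 218 (27 to 309) over all excitatory neurons, L5-S100b, L2/3-Rorb, L6-Npy and L6-Syt6. The counts of 0 came from edgeR without the block in L2/3-Rorb and L5-Bcl6 (225 and 228 genes had a raw p below 0.05), and, for 5 or more against 0, in L2/3-Rorb (285) and L6-Npy (406), from DESeq2 in L2/3-Rorb (132), and from leaving out 1 unsorted library over all excitatory neurons. Subtypes at 1 to 2 CPM of Utrn hold 15 to 41 UMIs per library in L6-Syt6, which limits any comparison there.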

Other observations

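The other genes of the pathway were spread over all gated classes of the unsorted libraries. By the mean over 3 libraries, 11 of the 40 were highest in oligodendrocyte precursors, 7 in mural cells, 6 in oligodendrocytes, 5 in inhibitory neurons, 4 each in endothelial cells and astrocytes, and 3 in microglia. The mural list held several ligands of dystroglycan, among them Egflam at 191 ± 16.1 CPM (SD, n = 3), Lama4 at 156 ± 17.3 CPM and Lama2 at 120 ± 30.5 CPM, together with the syntrophin gene Sntb1 at 78.4 ± 3.3 CPM. Agrin (Agrn) was highest in the endothelial gate at 186 ± 16.0 CPM. Kcnj10 was highest in oligodendrocytes, at 188 ± 6.88 CPM, above its level of 127 to 137 CPM in the astrocyte gate. Inhibitory neurons were highest for Nrxn3 (1658 ± 65.8 CPM) and Nos1 (122 ± 21.7 CPM). These genes were picked from the list after their values were seen, and no test was made.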
